A study of Drosophila melanogaster with 16 samples.

Results

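T-box genes were followed in single *Drosophila* embryos mutant for enzymes that take ubiquitin off histone H2A or put it on. The 8 genes are *Doc1*, *Doc2*, *Doc3*, *H15*, *mid*, *bi*, *org-1* and *byn*. They were taken as a family and not picked by their values, but earlier results of these data were known when the family, the gene lists and the tests were chosen. Their symbols were matched to the gene IDs of the 2 deposited tables. All 8 were present among the 13754 genes of each table, and all 8 passed the limit on low values (a mean normalized read count of at least 10).

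T-box proteins bind DNA through the conserved T domain and act as activators or repressors of transcription. In the fly embryo they pattern the dorsal ectoderm, the heart, the visceral and somatic muscles, the hindgut and parts of the nervous system, often downstream of the BMP ligand Dpp or of Wingless. As genes for developmental regulators with patterned expression, they belong to the kind of gene that the Polycomb system is known to control.

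Poly(A) RNA of single embryos at stage 16 was sequenced, 16 embryos in all, in 2 comparisons that asked how global transcription responds when H2A monoubiquitination (H2Aub1) is raised or removed. The first compared 5 *Asx0* embryos with 3 wild-type embryos, and the second 4 *SceI48A* embryos with 4 other wild-type embryos. *Asx0* is a null allele of the gene for Asx, the partner of the deubiquitinase Calypso in PR-DUB, the complex that takes ubiquitin off H2A. These embryos were recognised by the absence of GFP among offspring of *w* parents that carried a *y+ Asx0* chromosome with FRT sites over a *CyO twi-Gal4 UAS-GFP* balancer, so that Asx made by the mother could still be present. *SceI48A* embryos had no wild-type Sce from either source: the E3 ligase subunit of PRC1 came from an inserted copy with the catalytic mutation in an *Sce0* null background that was also *w* and *cu sr*, and a wild-type *Sce+* cassette had been removed by *nos-Gal4VP16* and *UAS-FLP*. The wild type was Oregon-R, a strain that shares neither the markers nor the insertions, so for every difference given here the stock and the mutation cannot be told apart. The authors had kept embryos that were alike in a principal component analysis and in morphology out of a larger set.

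The values are deposited log2 normalized read counts, 1 per gene and embryo. Their transformation is not described, and they behave like values drawn towards each gene's mean, so that differences can be smaller than they were in the reads. Each table was normalized alone, so values are compared only within a table, and the number of reads per embryo is unknown. Because whole embryos were used, fewer cells that express a gene and less RNA per cell cannot be told apart. *Asx* RNA lay at 10.16 to 10.37 in *Asx0* embryos and at 10.25 to 10.35 in their wild type, and *Sce* RNA at 9.08 to 9.19 in *SceI48A* embryos and at 8.93 to 9.11 in theirs, so neither checks the allele. The marker gene *white* (*w*) lay at 6.69 to 6.90 in *Asx0* embryos against 8.16 to 8.21 in their wild type, and at 10.56 to 11.62 in *SceI48A* embryos against 9.65 to 9.88 in theirs. Of 7 genes of differentiated late embryos (muscle, neurons, glia and trachea), all were measured in both tables, and of 4 genes of cellularisation only *Sry-alpha* passed the low-value limit, in the *SceI48A* table. Wild-type replicate 1 of the *SceI48A* table stood out most. It had the lowest of the 4 wild-type values for 37.7% of all tested genes (20% to 22.3% in the other 3). It also had the highest level of cuticle protein genes in its table (0.23 above the mean) and the lowest level of the neuronal gene *elav* (12.12, against 12.59 to 12.68 in the other 3). By the same share *SceI48A* replicate 1 came next in this table, with the lowest of the 4 mutant values for 32.1% (20.6% to 24.6% in the other mutant embryos). The median of the T-box genes in the *SceI48A* table is also given with each of these embryos left out. Each of their differences there that moved by over 1.5 times without wild-type replicate 1 is also given without it.

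No T-box gene differed from wild type in *Asx0* embryos at an adjusted p under 0.05 (limma on the log2 values, with Benjamini-Hochberg adjustment over all 10212 tested genes). This was 0 of 8 higher and 0 of 8 lower, where 5.19% of all tested genes were called higher and 6.15% lower, and 0.441% were called with a fold above 2. At an unadjusted p under 0.05 in limma there were 2 of the 8, *Doc1* and *org-1*, beside 2722 of all 10212 tested genes. By the exact permutation test over embryos, which can go no lower than p = 0.0179 with 56 arrangements, there were 0 of the 8. The groups of embryos overlapped for every member, where 9.79% of all tested genes did not overlap with *Asx0* higher and 10.3% with *Asx0* lower. The log2 fold changes ran between -0.20 and 0.19 with a median of 0.01, 4 of them above 0 and 4 below, and the median over all tested genes was -0.00. The 95% intervals of the 8 genes reached 0.773-fold at the lower end and 1.31-fold at the upper end on this shrunken scale.

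No T-box gene was called in *SceI48A* embryos either. This was 0 of 8 higher and 0 of 8 lower in limma, where 3.10% of the 10369 tested genes were called higher and 4.39% lower, and 0.405% with a fold above 2. Only *byn* of the 8 had an unadjusted p under 0.05 in limma, beside 2560 of the 10369 tested genes. The exact permutation test over the 70 arrangements reached its smallest possible p of 0.0286 for *mid* and *byn*, the 2 members whose groups did not overlap (both higher, 2 of 8), where 8.89% of all tested genes did not overlap with *SceI48A* higher. No member was separated in the other direction, against 9.10% of all tested genes. The log2 fold changes had a median of 0.14, beside 0.00 over all tested genes, and 7 of the 8 lay above 0 (8 of 8 under quantile normalization or median centring, where *org-1* came to 0.03 and 0.02). Without wild-type replicate 1 the median was 0.09, with 7 of 8 above 0. Without *SceI48A* replicate 1 it was 0.11, also with 7 of 8 above 0. The 95% intervals reached 0.868-fold at the lower end and 1.47-fold at the upper end. Whether the 2 mutants differ from each other was not tested.

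**Figure D1:**
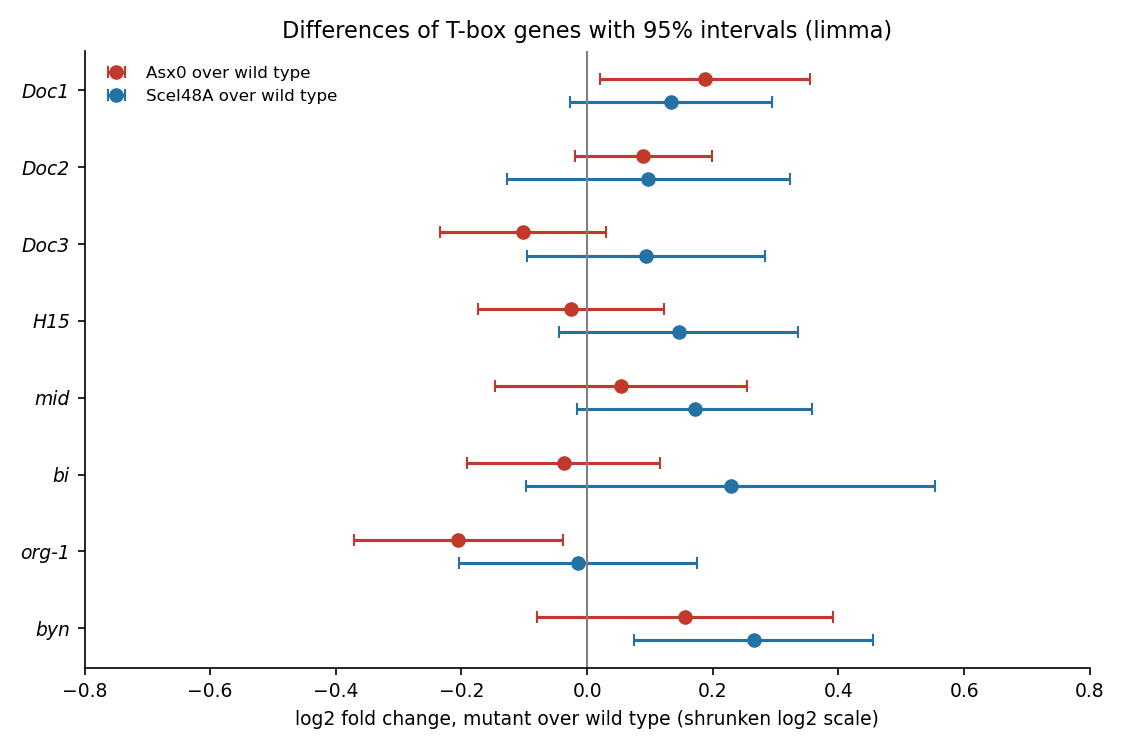
Log2 fold change (mutant over wild type, horizontal axis, on the shrunken log2 scale) of each T-box gene from limma, with its 95% interval, for *Asx0* over its 3 wild-type embryos (red) and *SceI48A* over its 4 (blue). The *Asx0* points lie between -0.20 and 0.19 on both sides of 0, and 7 of the 8 *SceI48A* points lie above 0, with intervals that mostly cross it.

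**Figure D2:**
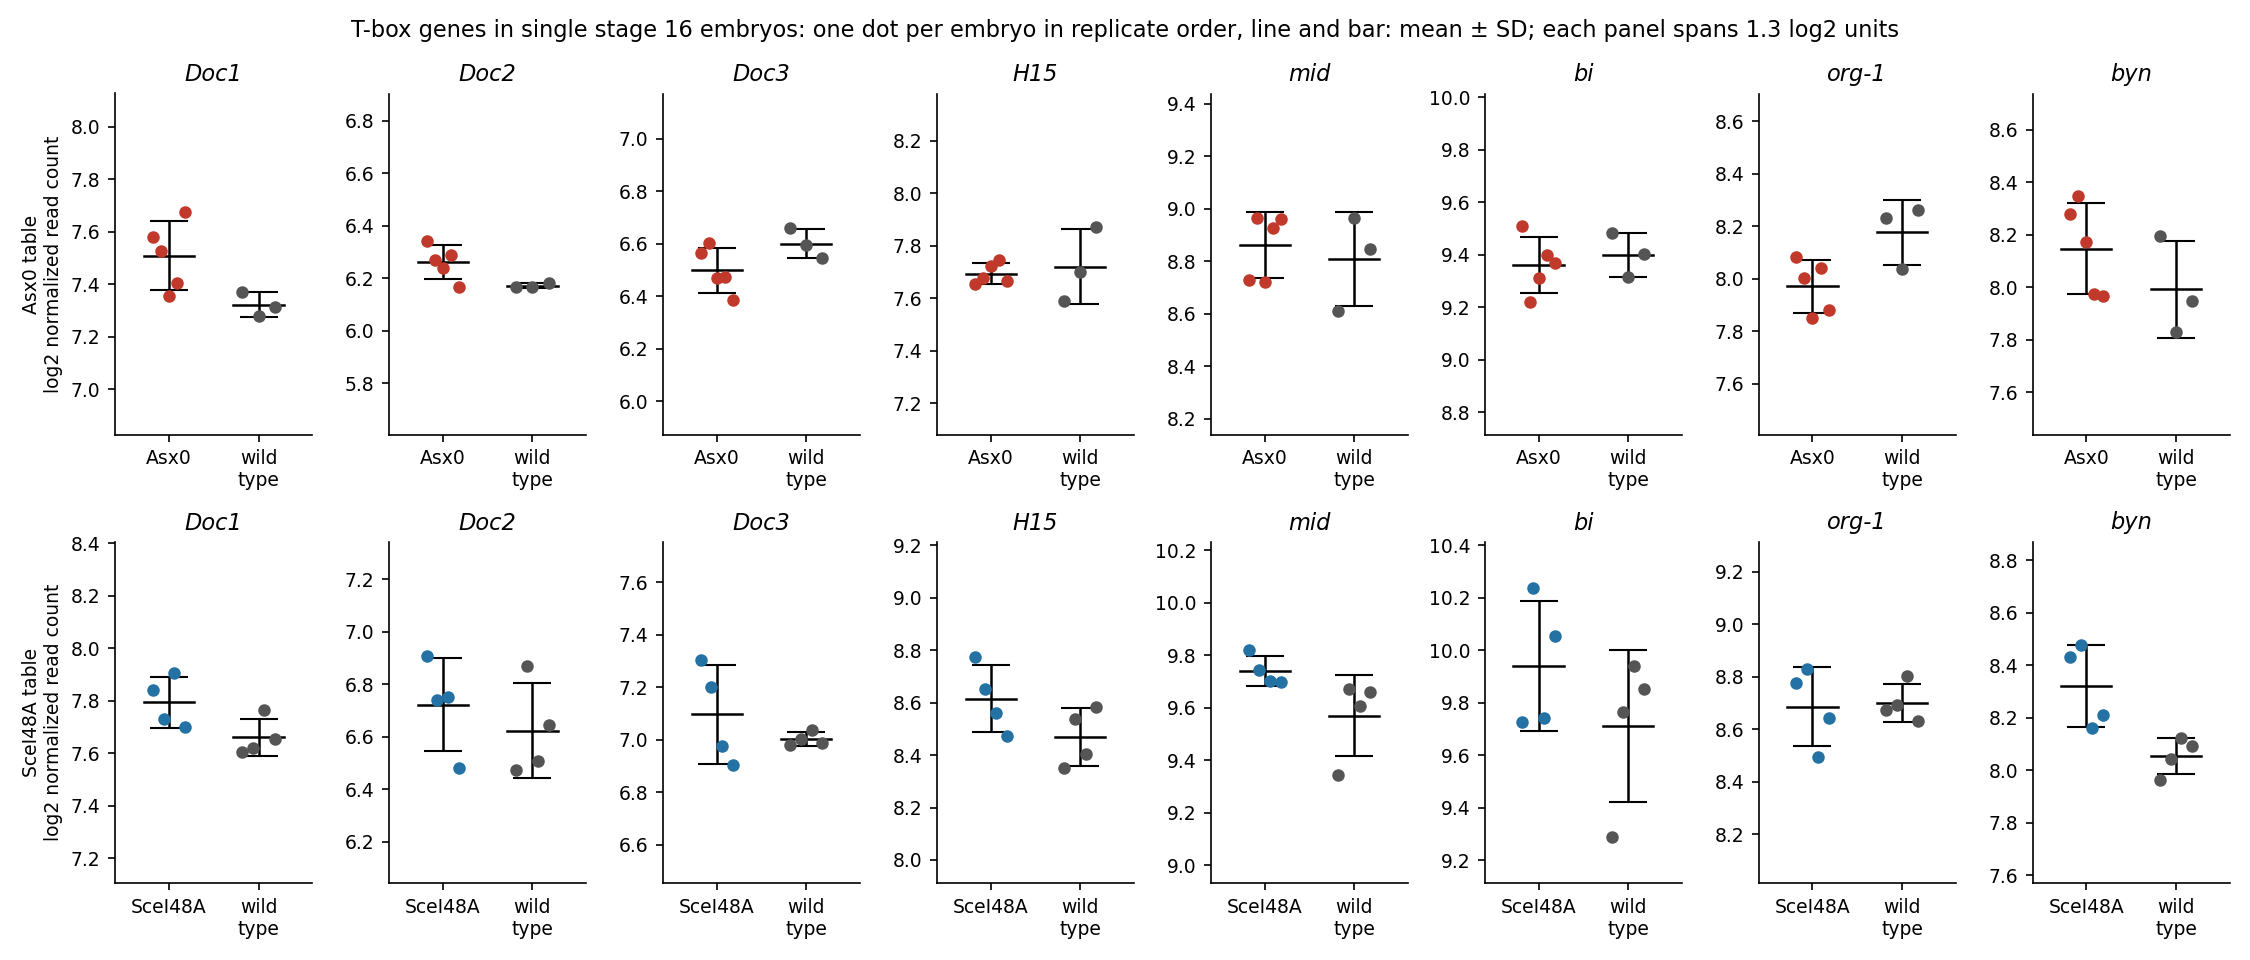
Log2 normalized read count of the 8 T-box genes in every embryo, with the *Asx0* table above and the *SceI48A* table below. Each dot is 1 embryo in replicate order, lines and bars are the mean ± SD, and every panel spans the same range of log2 units. The groups overlap in all panels but those of *mid* and *byn* in the *SceI48A* table, where the lowest mutant values (9.70 and 8.16) lie just above the highest wild-type values (9.67 and 8.12).

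The 3 *Dorsocross* genes encode related T-box factors that work redundantly in the amnioserosa, in dorsal closure and in the heart, where they are expressed under Dpp and Wingless control. They lie together on chromosome arm 3L (dm6): *Doc3* (FBgn0035954) at 9005196 to 9007249 on the plus strand, *Doc2* (FBgn0035956) at 9012686 to 9019246 on the minus strand and *Doc1* (FBgn0028789) at 9041375 to 9045042 on the plus strand. Their starts are 14.05 kb (*Doc2* and *Doc3*) to 36.18 kb (*Doc1* and *Doc3*) apart.

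*Doc1* had log2 values of 7.58, 7.53, 7.35, 7.41 and 7.68 in the 5 *Asx0* embryos, against 7.37, 7.28 and 7.31 in the 3 wild-type embryos. Only *Asx0* replicate 3 fell below the highest wild-type embryo. The log2 fold change was 0.19 (standard error 0.08, 95% interval 0.02 to 0.35, adjusted p = 0.141 in limma), and the exact permutation p was 0.0536. In the other table *Doc1* lay at 7.84, 7.73, 7.91 and 7.70 in *SceI48A* embryos, against 7.60, 7.62, 7.76 and 7.65 in wild type. Here 2 mutant embryos lay above all wild-type embryos and the other 2 lay below wild-type replicate 3. The log2 fold change was 0.13 (standard error 0.07, 95% interval -0.03 to 0.29, adjusted p = 0.288 in limma).

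*Doc2* lay at 6.34, 6.27, 6.24, 6.29 and 6.17 in *Asx0* embryos, against 6.16, 6.17 and 6.18 in wild type. The 3 wild-type values were within 0.01 (SD) of each other. Counting alone would give a spread of 0.17 on the log2 scale if the gene's mean normalized count of 75.6 stood for reads. The log2 fold change was 0.09 (95% interval -0.02 to 0.20, adjusted p = 0.285 in limma). Its values in the *SceI48A* table were 6.91, 6.74, 6.75 and 6.48 in *SceI48A* embryos and 6.48, 6.87, 6.51 and 6.64 in wild type. The groups ran over nearly the same range, with a log2 fold change of 0.10 (95% interval -0.13 to 0.32, adjusted p = 0.599 in limma). Without wild-type replicate 1 it was 0.05, and over all single embryos left out it ran between 0.03 (without *SceI48A* replicate 1) and 0.18 (without wild-type replicate 2).

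*Doc3* lay at 6.56, 6.60, 6.47, 6.48 and 6.39 in *Asx0* embryos, against 6.66, 6.60 and 6.55 in wild type. It was the only *Dorsocross* gene with a negative difference, -0.10 (95% interval -0.23 to 0.03, adjusted p = 0.31 in limma), and 3 of the 5 *Asx0* embryos were below every wild-type embryo. *Doc3* had 7.30, 7.20, 6.98 and 6.90 in *SceI48A* embryos, against 6.98, 7.0, 7.04 and 6.99 in wild type. The wild-type embryos were close together (SD 0.03) and the mutant embryos spread on both sides of them (SD 0.19), 2 above all wild types and 2 below all. The log2 fold change was 0.09 (95% interval -0.10 to 0.28, adjusted p = 0.544 in limma), and it came to 0.02 without *SceI48A* replicate 1, 0.06 without replicate 2 and 0.16 without replicate 4.

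*H15* and *mid* (*midline*) are neighbouring genes for the fly's Tbx20-type factors, which act in cardioblasts. *mid* also represses *wingless* in the segmented ectoderm and acts in axon guidance. *H15* (FBgn0016660) lies on chromosome arm 2L at 5404280 to 5416593 and *mid* (FBgn0261963) at 5461639 to 5467610, both on the plus strand, with starts 57.36 kb apart.

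*H15* had 7.65, 7.68, 7.72, 7.75 and 7.67 in *Asx0* embryos and 7.59, 7.70 and 7.87 in wild type. All 5 *Asx0* embryos lay inside the wild-type range, and the log2 fold change was -0.03 (95% interval -0.17 to 0.12, adjusted p = 0.85 in limma). In *SceI48A* embryos *H15* had 8.77, 8.65, 8.56 and 8.47, against 8.35, 8.54, 8.40 and 8.58 in wild type. The 2 highest values were mutant and the 2 lowest wild type, with a log2 fold change of 0.15 (95% interval -0.04 to 0.34, adjusted p = 0.329 in limma) that came to 0.09 without *SceI48A* replicate 1.

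*mid* had 8.73, 8.97, 8.72, 8.93 and 8.96 in *Asx0* embryos and 8.61, 8.97 and 8.84 in wild type. Both groups ran over the same range, and the log2 fold change was 0.05 (95% interval -0.15 to 0.25, adjusted p = 0.757 in limma). In the *SceI48A* table *mid* lay at 9.82, 9.75, 9.70 and 9.70 in *SceI48A* embryos, against 9.34, 9.67, 9.61 and 9.66 in wild type. All 4 mutant embryos were above all 4 wild-type embryos, and the log2 fold change was 0.17 (standard error 0.09, 95% interval -0.02 to 0.36, adjusted p = 0.242 in limma). The low value of wild-type replicate 1 carried much of it: without that embryo the log2 fold change of *mid* was 0.10 (adjusted p = 0.452 in limma).

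*bi* (*bifid*, also called *optomotor-blind*) is a Dpp target in the wing and is needed in the optic lobes. It is X-linked (FBgn0000179, X, 4412856 to 4485647, plus strand). *bi* had 9.51, 9.22, 9.31, 9.40 and 9.37 in *Asx0* embryos and 9.48, 9.32 and 9.40 in wild type, with a log2 fold change of -0.04 (95% interval -0.19 to 0.12, adjusted p = 0.783 in limma). The highest and the 2 lowest of the 8 values were all of *Asx0* embryos. In the other table *bi* had 9.73, 10.24, 9.74 and 10.05 in *SceI48A* embryos, against 9.29, 9.76, 9.94 and 9.85 in wild type. This was the widest spread of any member (SD 0.25 and 0.29, n = 4 each), and the log2 fold change of 0.23 had a 95% interval of -0.10 to 0.55 (adjusted p = 0.373 in limma). Without wild-type replicate 1, by far the lowest embryo for this gene, it was 0.09 (adjusted p = 0.729 in limma), and without *SceI48A* replicate 2, the highest, 0.13.

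*org-1* encodes the fly's Tbx1-type factor, which specifies founder cells of the visceral mesoderm and of some body wall muscles. It is X-linked too (FBgn0021767, X, 8447691 to 8455069, minus strand). *org-1* had 8.09, 8.00, 7.85, 8.04 and 7.88 in *Asx0* embryos, against 8.23, 8.04 and 8.26 in wild type. The 2 highest embryos were wild type, and wild-type replicate 2 lay within the *Asx0* range. The log2 fold change, -0.20 (standard error 0.08, 95% interval -0.37 to -0.04), was the lowest of the 8 genes and had the smallest adjusted p among them in this table (0.109 in limma), and the exact permutation p was 0.0714. In the second comparison *org-1* had 8.78, 8.83, 8.50 and 8.64 in *SceI48A* embryos and 8.67, 8.69, 8.80 and 8.63 in wild type. It was the member with the smallest difference there, -0.01 (95% interval -0.20 to 0.18, adjusted p = 0.941 in limma), and came to -0.02 without wild-type replicate 1.

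*byn* (*brachyenteron*) is the fly's Brachyury-type gene and is required to form the hindgut. It lies on chromosome arm 3L (FBgn0011723, 11927693 to 11935919, plus strand). *byn* had 8.28, 8.35, 8.17, 7.97 and 7.97 in *Asx0* embryos, against 8.19, 7.83 and 7.95 in wild type, and the log2 fold change was 0.16 (95% interval -0.08 to 0.39, adjusted p = 0.389 in limma). Only 2 of the 5 *Asx0* embryos lay above the highest wild-type embryo, and the log2 fold change was 0.26 without wild-type replicate 1 and 0.08 without wild-type replicate 2. In the *SceI48A* table *byn* had 8.43, 8.48, 8.16 and 8.21 in *SceI48A* embryos, against 7.96, 8.04, 8.12 and 8.09 in wild type. All 4 mutant embryos were higher, 2 of them by a small margin, and the log2 fold change was 0.27 (standard error 0.09, 95% interval 0.08 to 0.46), or 1.2-fold with an interval of 1.05 to 1.37. This was the largest difference among the members in either table, and its adjusted p of 0.0864 in limma did not pass the threshold. Without wild-type replicate 1 the value was 0.23 (adjusted p = 0.171 in limma).

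The sex of the embryos was not given. *msl-2*, which encodes a subunit of the male dosage compensation complex, and *Sxl*, the switch gene of female development, varied within every group. In the *Asx0* table *msl-2* lay at 8.31, 8.99, 9.16, 9.13 and 9.14 in *Asx0* embryos and at 8.24, 9.09 and 8.37 in wild type. The 3 embryos with the lowest *msl-2* (1 *Asx0*, 2 wild type) also had the 3 highest *Sxl* values (12.00, 12.18 and 12.26, against 11.47 to 11.59 in the other 5) and the 3 highest *org-1* values. They had the 3 highest values of *bi* as well, although *Asx0* replicate 4 was equal to the lowest of them at 2 decimals (9.40). In the *SceI48A* table *SceI48A* replicate 2 and wild-type replicate 3 had the lowest *msl-2* (9.03 and 8.76, against 9.73 to 9.996 in the other 6) and the 2 highest *org-1* values. For *bi* the order differed: *SceI48A* replicate 2 was the highest (10.24), but *SceI48A* replicate 4 (10.05, with *msl-2* at 9.81) lay above wild-type replicate 3 (9.94). With *msl-2* minus *Sxl* as a covariate in the *Asx0* table, the log2 fold change of *org-1* was -0.11 (adjusted p = 0.385 in limma) and that of *bi* 0.04 (adjusted p = 0.796 in limma). Autosomal members moved too: *byn* from 0.16 to 0.27 (adjusted p = 0.184 in limma) and *mid* from 0.05 to -0.05 (adjusted p = 0.808 in limma). The rest moved less, *Doc1* to 0.23, *Doc2* to 0.12, *Doc3* to -0.08 and *H15* to -0.03. The part of *msl-2* and *Sxl* in the results was not tested further.

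**Figure D3:**
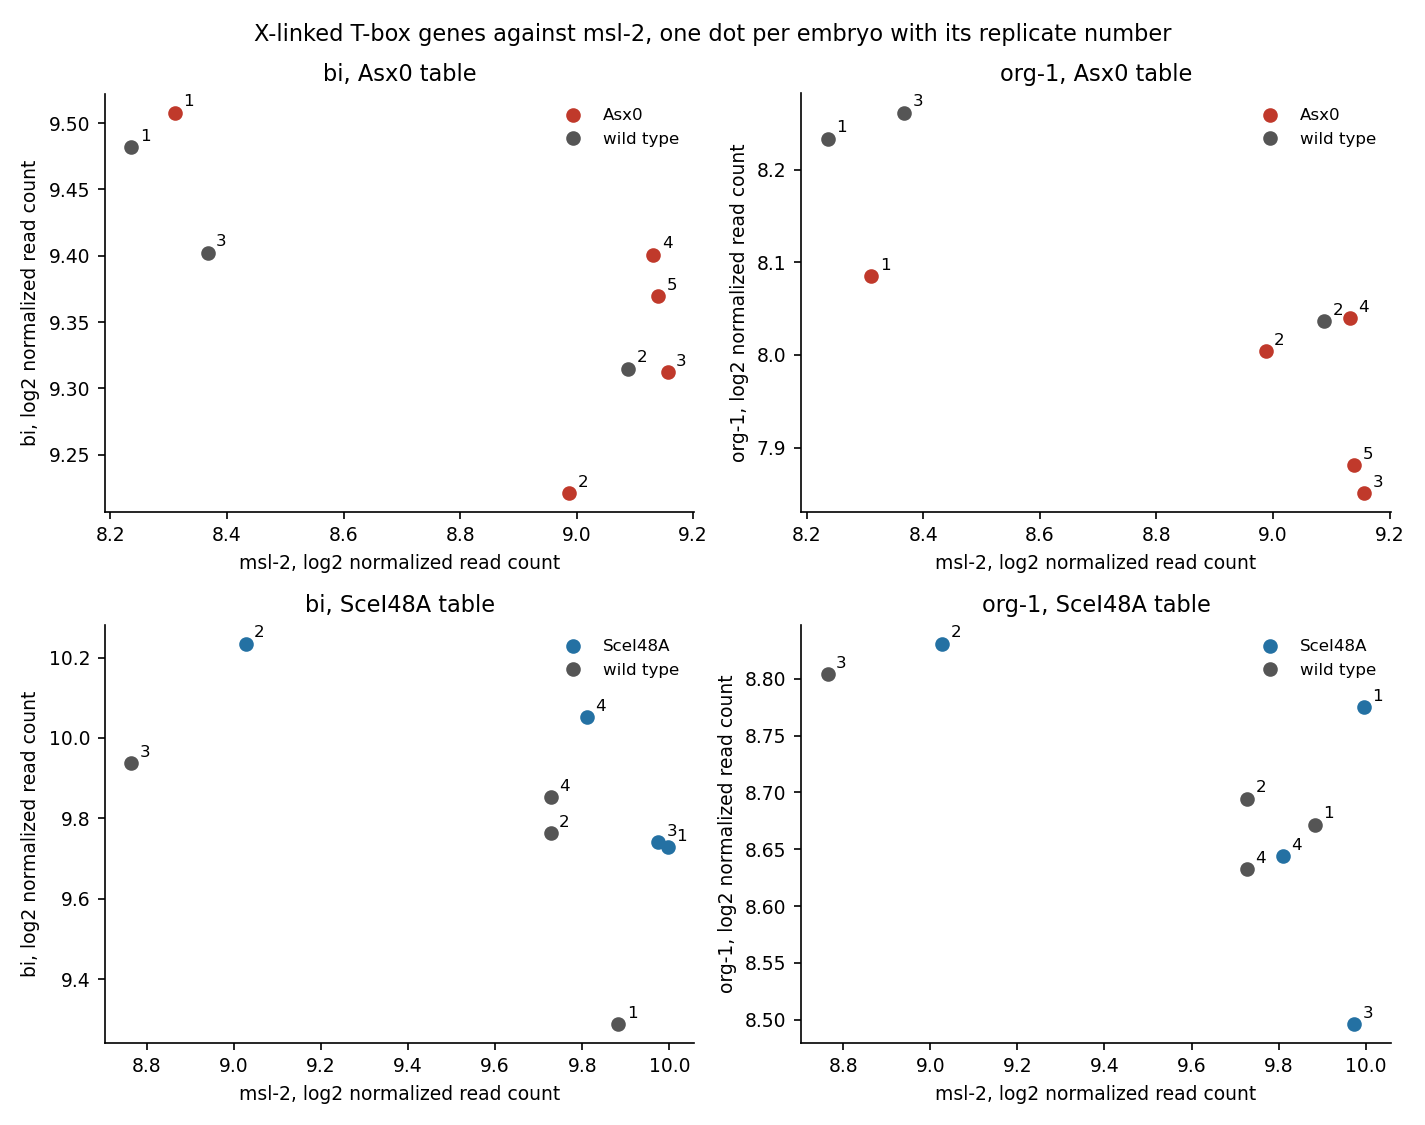
Log2 normalized read counts of the X-linked members *bi* and *org-1* (vertical axes) against *msl-2* (horizontal axes), 1 dot per embryo with its replicate number, *Asx0* red, *SceI48A* blue and wild type grey. In the *Asx0* table the 3 embryos with *msl-2* at 8.24 to 8.37 have the highest *org-1*, and in the *SceI48A* table the 2 embryos with *msl-2* at 8.76 and 9.03 do.

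Averaged over the 8 genes, the embryos of the *Asx0* table lay close together. The mean deviation of the genes from their means over the table was 0.06, 0.04, -0.05, -0.00 and -0.02 in *Asx0* embryos and 0.01, -0.05 and 0.01 in wild type. In the *SceI48A* table it was 0.15, 0.16, -0.01 and -0.02 in *SceI48A* embryos and -0.21, -0.02, -0.02 and -0.03 in wild type. The largest mean deviations were those of 3 embryos: *SceI48A* replicates 1 and 2, which held the highest value of 7 of the 8 genes between them, and wild-type replicate 1, which held the lowest value of 6 of the 8. Over all tested genes, wild-type replicate 1 held the lowest value of its table for 26.2%, *SceI48A* replicate 1 for 21.7% and *SceI48A* replicate 2 for 9.87%. The share of all tested genes for which these 2 mutant embryos were highest was not counted. The 7 of 8 therefore has no background beside it and is not read as a trait of the T-box genes. The other 2 mutant embryos were level with the other 3 wild-type embryos.

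**Figure D4:**
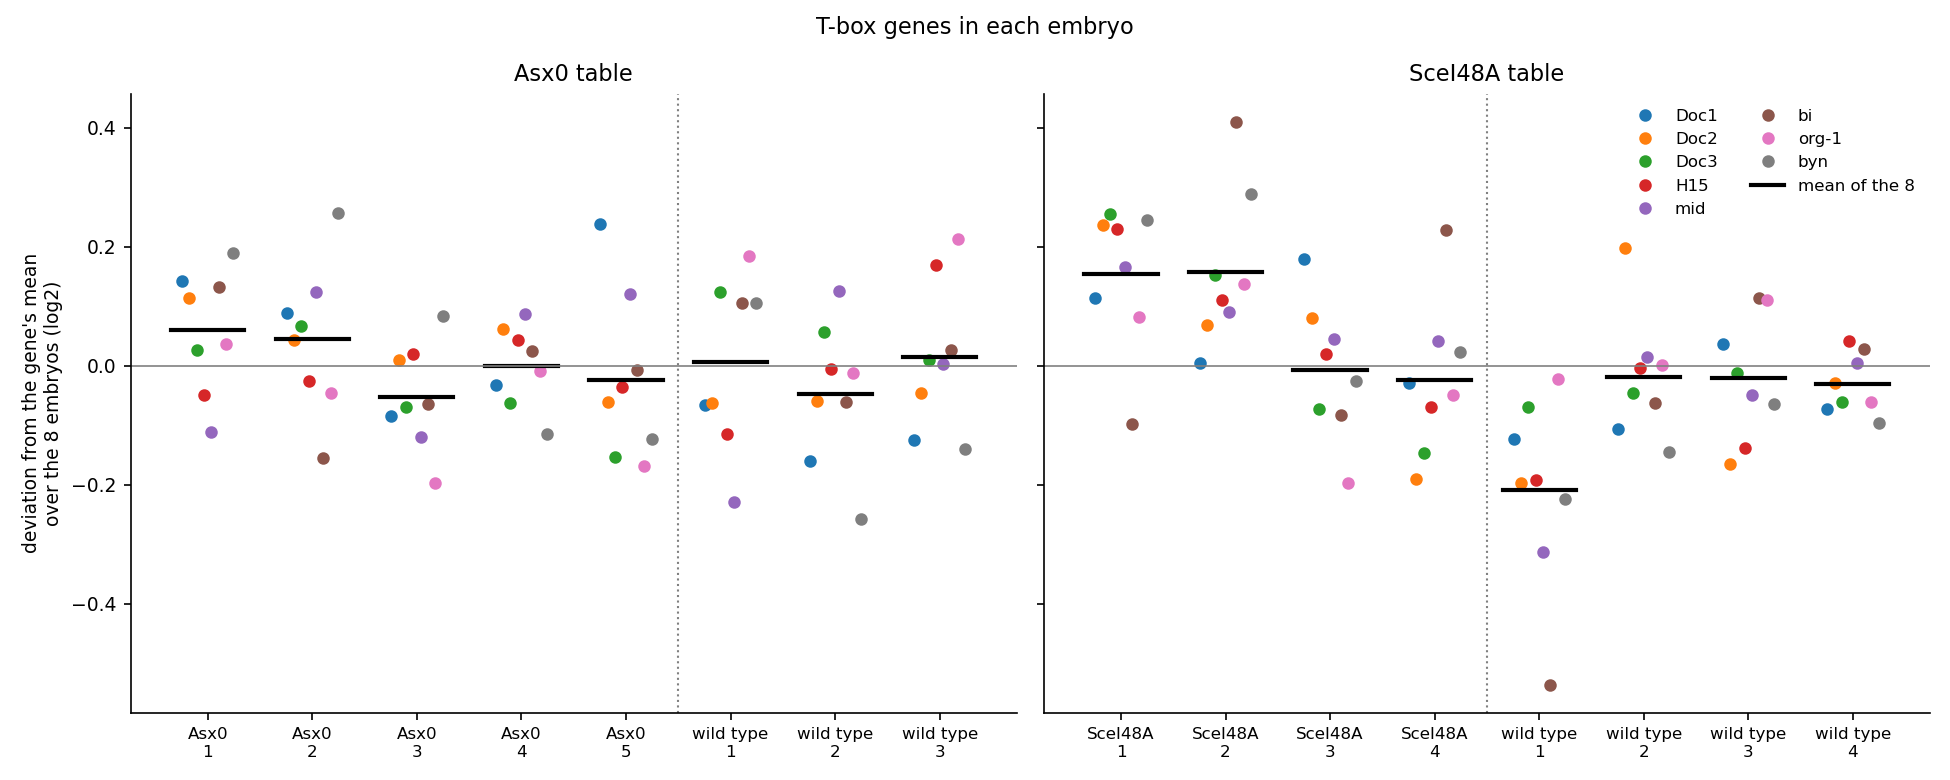
Deviation of each T-box gene from its own mean over the 8 embryos of a table (log2, vertical axis) in every embryo, coloured by gene, with the mean of the 8 genes as a black bar and mutant embryos left of the dotted line. The bars of *SceI48A* replicates 1 and 2 lie at 0.15 and 0.16 and that of wild-type replicate 1 at -0.21, and all others lie between -0.05 and 0.06.

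To set the genes beside each other, values were divided by the length of the longest annotated transcript (log2 normalized count per kb). *mid* was the highest in all 4 groups, at 7.32 ± 0.12 in *Asx0* embryos (SD, n = 5) and 7.26 ± 0.18 in their wild type (SD, n = 3), and at 8.19 ± 0.06 in *SceI48A* embryos and 8.02 ± 0.15 in theirs (SD, n = 4 each). *Doc3* and below it *Doc2* were the lowest in all 4 groups, without overlap with their neighbours in the order. Between them the order in the wild type of the *Asx0* table was *bi*, *Doc1*, *byn*, *org-1* and *H15*, where *Doc1* and *byn*, *byn* and *org-1*, and *org-1* and *H15* overlapped. In the wild type of the *SceI48A* table it was *bi*, *Doc1*, *org-1*, *H15* and *byn*, where *bi* and *Doc1*, *Doc1* and *org-1*, and *org-1* and *H15* overlapped. *Asx0* embryos had *Doc1* above *bi* with overlap, and *SceI48A* embryos had *byn* above *org-1* with overlap. Among all tested genes the members took positions between the percentiles 15.9 (*Doc2*) and 43.5 (*mid*) of the mean count per kb in the *Asx0* table, and between 18.2 and 51.8 in the *SceI48A* table.

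Genes of the tissues and pathways in which T-box factors act were counted in 9 lists, of which 77 genes were tested in the *Asx0* table and 78 in the *SceI48A* table. In *Asx0* embryos 2 were called higher and 7 lower in limma, to be read against the 5.19% and 6.15% of all tested genes. Of 13 genes of the dorsal vessel and 9 of the amnioserosa and dorsal closure, *tup*, the Islet-type LIM homeodomain gene in both lists, fell to 9.37 ± 0.04 in *Asx0* embryos (SD, n = 5), against 9.67 ± 0.04 in wild type (SD, n = 3, log2 fold change -0.30, adjusted p = 0.00261 in limma). *Ance*, a peptidase gene of the amnioserosa and heart, was lower too (log2 fold change -0.44, adjusted p = 0.00621 in limma), and the medians of the lists were -0.01 and -0.03. Of 12 hindgut genes none was called, the smallest p being that of *bowl*, a zinc finger gene (-0.14, adjusted p = 0.131 in limma).

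In the Dpp pathway, 1 of 12 tested genes was higher in *Asx0* embryos and 2 were lower, and the median log2 fold change of the list was -0.06. Whether the output of the pathway changed was not tested. *Dad*, the inhibitory Smad that Dpp induces, rose to 9.38 ± 0.11 in *Asx0* embryos (SD, n = 5), against 8.98 ± 0.10 in wild type (SD, n = 3, log2 fold change 0.41, adjusted p = 0.00543 in limma). *brk*, the repressor of Dpp targets, was lower (-0.28, adjusted p = 0.0215 in limma), and so was *Mad*, the Smad that carries the signal (-0.18, adjusted p = 0.0495 in limma). *wg*, the Wingless ligand, was the only called gene of 10 in segment polarity (-0.29, adjusted p = 0.0293 in limma). Of 7 genes of midline axon guidance the ligand *NetB* was lower (-0.32, adjusted p = 0.00297 in limma) and the Slit receptor *robo2* higher (0.24, adjusted p = 0.0467 in limma). Of 14 genes of visceral mesoderm and muscle founders, the Iroquois gene *caup* was lower (-0.23, adjusted p = 0.0179 in limma), and of the 7 genes of differentiated tissue none was called (*Mhc*, muscle myosin, 0.08, adjusted p = 0.436 in limma). Some of these calls were lost under other settings of the fit, which included no filter, the *msl-2* minus *Sxl* covariate and 1 embryo left out. Over 20 alternatives *tup*, *Ance*, *Dad* and *NetB* passed in all. *Mad* missed the threshold in 15, *robo2* in 13, *wg* in 6, *brk* in 4 and *caup* in 2. Without wild-type replicate 3, 5 list genes were called.

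In *SceI48A* embryos 1 list gene was called higher and 1 lower, against 3.10% and 4.39% of all tested genes. *dpp* itself, the BMP ligand, was higher at 9.71 ± 0.04 in *SceI48A* embryos and 9.43 ± 0.05 in wild type (SD, n = 4 each, log2 fold change 0.28, adjusted p = 0.0295 in limma), the only call among 12 tested genes of its pathway. *Hand*, a bHLH gene of the heart, was lower at 7.85 ± 0.11 in *SceI48A* embryos and 8.12 ± 0.03 in wild type (SD, n = 4 each, -0.27, adjusted p = 0.0486 in limma), the only call among 13 dorsal vessel genes, whose median was 0.10. *Hand* missed the threshold in 13 of 20 alternatives and *dpp* in 8, and 0 list genes were called without *SceI48A* replicate 4 or without wild-type replicate 2, 3 or 4. In the other lists no gene passed. The genes with the smallest p there had log2 fold changes of 0.17 (*raw*, dorsal closure, adjusted p = 0.165 in limma), 0.37 (*fkh*, the FoxA gene of the gut, adjusted p = 0.0774 in limma) and -0.22 (*vg*, a muscle and wing regulator, adjusted p = 0.15 in limma). They had 0.37 (*nkd*, a Wingless feedback inhibitor, adjusted p = 0.0639 in limma), 0.30 (*sli*, the Slit ligand, adjusted p = 0.0562 in limma), 0.29 (*elav*, adjusted p = 0.163 in limma) and 0.00 (*Sry-alpha*, adjusted p = 0.978 in limma). The medians of the lists ran between 0.00 and 0.16, beside 0.00 over all tested genes. Wild-type replicate 1 had the lowest *elav* and *sli*, and without it *elav* was at 0.16 (adjusted p = 0.289 in limma) and *sli* at 0.22 (adjusted p = 0.0741 in limma). Without the same embryo *vg* passed (-0.30, adjusted p = 0.0419 in limma), while *dpp* (0.26, adjusted p = 0.0531 in limma) and *Hand* (-0.27, adjusted p = 0.0844 in limma) did not. *Sry-alpha* was at 0.01. The calls of *dpp* and *Hand* were also lost without any other wild-type embryo, so their loss was not particular to replicate 1.

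Genes whose start lay within 50 kb of the start of a T-box gene were counted to describe the surroundings of the loci. In *Asx0* embryos 2 of 38 such genes were called higher and 3 lower in limma, beside 5.19% and 6.15% of all tested genes, with a median log2 fold change of -0.02. *Galk*, the galactokinase gene 19.1 kb from the start of *Doc3* and 33.16 kb from that of *Doc2*, fell to 9.88 ± 0.08 in *Asx0* embryos (SD, n = 5), against 10.48 ± 0.10 in wild type (SD, n = 3, log2 fold change -0.60, adjusted p = 0.000166 in limma), and passed in all 20 alternatives. In *SceI48A* embryos *Galk* was lower as well, at 10.64 ± 0.23 against 11.07 ± 0.15 in wild type (SD, n = 4 each, -0.43, adjusted p = 0.0457 in limma), but missed the threshold in 12 of 20 alternatives. The other calls in *Asx0* embryos were *Miga*, a mitochondrial fusion gene near *org-1* (0.30, adjusted p = 0.0184 in limma), and 3 genes near *byn*: *CG5897* (-0.33, adjusted p = 0.0121 in limma), *CG5883* (-0.21, adjusted p = 0.00351 in limma) and *CG43294* (0.13, adjusted p = 0.0197 in limma). *Miga* missed the threshold in 4 of 20 alternatives, *CG5897* in 2 of 20 and *CG43294* in 5 of the 19 in which it was tested. *CG5883* passed in all 19 in which it was tested. *CG5883* and *CG43294* had low mean normalized counts (23.6 and 15.8) and were not tested at a minimum of 50. Without wild-type replicate 3, 3 of the neighbours were called.

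In *SceI48A* embryos 3 of 40 neighbours were called higher and 1 lower, beside 3.10% and 4.39% of all tested genes, with a median of 0.03. The 3 were *Es2*, whose start is 6.41 kb from that of *org-1* (0.50, adjusted p = 0.0337 in limma), *PIG-T*, a subunit gene of the GPI transamidase, 47.81 kb from it (0.38, adjusted p = 0.0391 in limma), and *pix*, 30.43 kb from *Doc3* (0.34, adjusted p = 0.0404 in limma). With wild-type replicate 1, 2 or 4 left out, limma called 0 of the neighbours, and with any other single embryo left out 1 to 3. Around *mid* and *H15* no tested gene lay within 50 kb, and around *bi* 1, *CG3626* (named here after its values were seen), which was not called.

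For each member the gene whose pattern over embryos was most like its own in both tables was looked up among 10061 genes, as the gene with the highest value of the smaller of its 2 Pearson correlations, each over 8 embryos. It was *melt* for *H15* (0.938 in the *Asx0* table and 0.888 in the *SceI48A* table), *MEP-1* for *byn* (0.856 and 0.935), *gpp* for *bi* (0.902 and 0.856) and *grh* for *org-1* (0.921 and 0.839). It was *pbl* for *mid* (0.869 in both), *al* for *Doc3* (0.844 and 0.917), *fidipidine* for *Doc1* (0.904 and 0.843) and *nom* for *Doc2* (0.816 and 0.803). These are the best of 10061 tries over 8 embryos that share their groups and normalization, and they are given as a description only.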

How the data were processed

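Poly(A) RNA of 16 single stage 16 embryos was measured in 2 tables. Per the paper's methods, the authors quantified transcripts with Salmon, brought them to gene level with tximeta and used DESeq2; the processing notes name the build dm6 and also deepTools, without versions. The deposited log2 normalized read counts of each embryo come with no description of the transformation. In 10 of 32 member groups their SD lay below the spread that counting alone would give if normalized counts stood for reads. Some SDs of such small groups can lie below it without any shrinkage. The authors' deposited mean normalized count per gene, a signal over all embryos of a table, served as filter and for the level per kb. The deposited columns of the authors' own comparison (fold change, standard error, test score, p-values) were not used. Embryos were grouped by their titles and genotype labels. Whether replicates share parents or collections is not given, so p-values measure the spread between these embryos.

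Each table was fitted alone with limma 3.58.1 in R 4.3.3 (empirical Bayes, variance trend) over genes whose mean normalized count reached 10, with Benjamini-Hochberg adjustment and a threshold of 0.05, also counted with a fold above 2. No pseudocount was added, as the values are already on a log2 scale. The fit was also run on simulated normal values with known changes, drawn independently for each gene and embryo. The deposited values need not have that form, so this run does not bear on the calls or on their absence. Single members were also tested by a two-sided exact permutation test over embryos. The tables give no total count per embryo, so depth is unknown and no counting interval could be given. Coordinates are from an Ensembl annotation of the dm6 assembly, and 32 IDs had no symbol.

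The members, lists and tests were chosen with earlier results of these data known. Named are the 8 members, up to 3 called genes per list (or the 1 with the smallest p), all called neighbours, the gene most like each member, and the genotype and sex marker genes. Of the list genes, *lbe*, *zen*, *scw* and the cellularisation genes *nullo*, *bnk* and *slam* were below the filter, *Sry-alpha* was below it in the *Asx0* table, and *Med* was not analysed here. Alternatives were no filter, a minimum of 50, pseudocounts of 1 and 5, quantile normalization, median centring, robust variances, no variance trend, quality weights per embryo, a replicate block, covariates from cuticle protein genes and from *msl-2* minus *Sxl*, and leaving out each embryo in turn.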

Additional observations from a re-analysis of the deposited data

Results flagged for a closer look

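Values were looked at in 66 groups of 4 or 5 embryos for 1 embryo far from the rest, and 4 were found, where chance would give about 1 in 20. None was among the 24 groups of T-box genes. All 4 were in the *SceI48A* table. In the wild-type group, replicate 1 was far below the others for *elav* (12.12, nearest 12.59), *sli* (13.45, nearest 13.74) and *Es2* (7.99, nearest 8.18). In the *SceI48A* group, replicate 2 was far above the others for *Sry-alpha* (3.57, nearest 3.37), a gene near the low-value limit.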

How the results depend on the processing

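No T-box gene was called under any of the 20 alternatives in either table. The smallest adjusted p of a member was 0.0594 in limma (*org-1* in *Asx0* embryos, without wild-type replicate 2) and 0.0616 in limma (*byn* in *SceI48A* embryos, quantile normalization). In *Asx0* embryos, *mid* turned to -0.048 and *bi* to 0.039 with the *msl-2* minus *Sxl* covariate. With 1 embryo left out, *mid* ran between -0.044 and 0.13, *bi* between -0.080 and 0.0038 and *H15* between -0.092 and 0.051. In *SceI48A* embryos, *org-1* turned to 0.029 (quantile normalization) and 0.020 (median centring), ran between -0.062 and 0.049 with 1 embryo left out, and *Sry-alpha* ran between -0.047 and 0.027. The values of these genes all lay near 0, and the cause of the turns was not tested.

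Counts of other genes moved more. In *Asx0* embryos, all tested genes called were 1158, against 749 with the *msl-2* minus *Sxl* covariate and 843 to 1028 with 1 embryo left out. List genes were 9 (5 to 9 with 1 left out). Neighbours were 5, against 3 at a minimum count of 50, 2 with that covariate and 3 to 6 with 1 left out. In *SceI48A* embryos, all called genes were 776, against 1178 with quality weights and 390 to 658 with 1 embryo left out (lowest without wild-type replicate 2). List genes were 2, against 1 without the filter, 1 with a pseudocount of 5, 6 with quality weights, 0 with the cuticle covariate and 0 to 3 with 1 left out. Neighbours were 4, against 2 without the filter, 2 with the cuticle covariate and 0 to 3 with 1 left out (0 without wild-type replicate 1, 2 or 4).

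Replicate numbers did not pair the embryos: embryos of 1 number correlated in their deviations by -0.09 to 0.16 (*Asx0* table) and by -0.13 to 0.11 (*SceI48A* table), and only replicate 1 of the *Asx0* table correlated best with its own number. With the replicate number as a block, 654 genes were called in *Asx0* embryos and 446 in *SceI48A* embryos, list genes were 4 and 0, neighbours 2 and 2, T-box genes 0 and 0, and *mid* in *Asx0* embryos came to -0.0017.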
